A study of Mus musculus with 8 samples.

Results

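Cells of AtT-20, a line from a mouse corticotrope tumour that secretes ACTH, were compared after 18 h and after 3 h of epidermal growth factor (EGF). The comparison covers 9149 protein-coding gene loci with FPKM (fragments per kilobase of transcript and per sequencing depth) of at least 1 in at least 2 of the 4 libraries of these 2 groups, out of 12193 loci in the tables. Another 313 protein-coding loci stayed below that level, and 648 small RNA loci were left out. Each group held 2 libraries of the genotype EGFR, AtT-20 cells with the epidermal growth factor receptor (EGFR), grown in the same serum-containing medium and treated with EGF for 3 h or for 18 h. Beside them stand 2 EGFR libraries and 2 libraries of the Neo control genotype, both given water and labelled 3 h. They enter the estimate of the spread, and the EGFR pair gives the level without EGF. No water library is labelled 18 h, so a longer exposure to EGF and a longer time in culture cannot be told apart. The labels do not say whether the EGFR cells are a single clone or a pool, how the receptor was introduced or from which species, or whether replicates are separate cultures. All p-values therefore set a difference between groups against the spread of these libraries within their groups, and that spread may be technical.

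EGF binding activates the tyrosine kinase of EGFR, which signals through the RAS-ERK cascade, through PI3K and AKT, and through STAT transcription factors. The earliest transcripts to respond encode transcription factors and feedback inhibitors, and many of them are short-lived. Later transcripts follow from the proteins made in the first hours, and in an endocrine cell they can include genes of the secretory pathway. Corticotropes make proopiomelanocortin (POMC), cut it into ACTH in dense-core granules, and release it on stimulation.

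Values are FPKM per library, replicate 1 first and replicate 2 second, and gene positions are those of the tables on mm10, counted from 1. Fold changes are log2 differences of FPKM + 1 between the mean of the 18 h libraries and that of the 3 h libraries, a scale that understates the change of genes of low FPKM. A gene was called higher or lower when limma's moderated test gave an adjusted p below 0.05. Replicates correlated at r = 0.9974 to 0.9989 across genes, and no library stood apart. The first principal component (52.7% of the variance) held the water libraries at −10.3 to −8.57 and the EGF libraries at 5.59 to 13.13. On the next one (25.1%), the 3 h libraries lay at −11.23 and −9.71 and the 18 h libraries at 8.14 and 6.49. Of 7 corticotrope markers, Pomc, Pitx1, Pcsk1, Tbx19 and Neurod1 had values. Their summed level ran from 7443 to 7909 FPKM after 3 h and from 8001 to 8397 FPKM after 18 h. Pomc made up most of it (6981 and 7430 FPKM, then 7429 and 7827 FPKM), so the sum does not show a common rise. Pcsk1 and Tbx19 were called higher at 18 h and Neurod1 lower, and Pomc was not called. Of 8 markers of other pituitary lineages and 9 of fibroblasts, endothelium and blood, 0 had values to analyse here.

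Between 3 h and 18 h, 1760 of the 9149 genes were higher (19.2%) and 1579 were lower (17.3%), and 5810 did not pass. Most differences were small. The median absolute log2 fold change of called genes was 0.22, and 104 genes (1.14%) were called and at least 1.5-fold higher against 26 (0.284%) at least 1.5-fold lower. At a fold of 2 the numbers were 15 higher and 2 lower. The largest changes were thus mostly increases, as the plot of change against level shows. Over all 9149 genes the median log2 fold change was 0.0043, with quartiles of −0.10 and 0.12. Without 3 h replicate 1 the counts were 1055 higher and 1110 lower, without 18 h replicate 1 they were 979 and 756, and without 18 h replicate 2 they were 997 and 843. Higher genes made up 52.7% of the calls, and 39.9% with common-sum rescaling (801 higher and 1207 lower). In bulk RNA, fewer cells of a kind and less RNA per cell cannot be told apart.

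**Figure D1:**
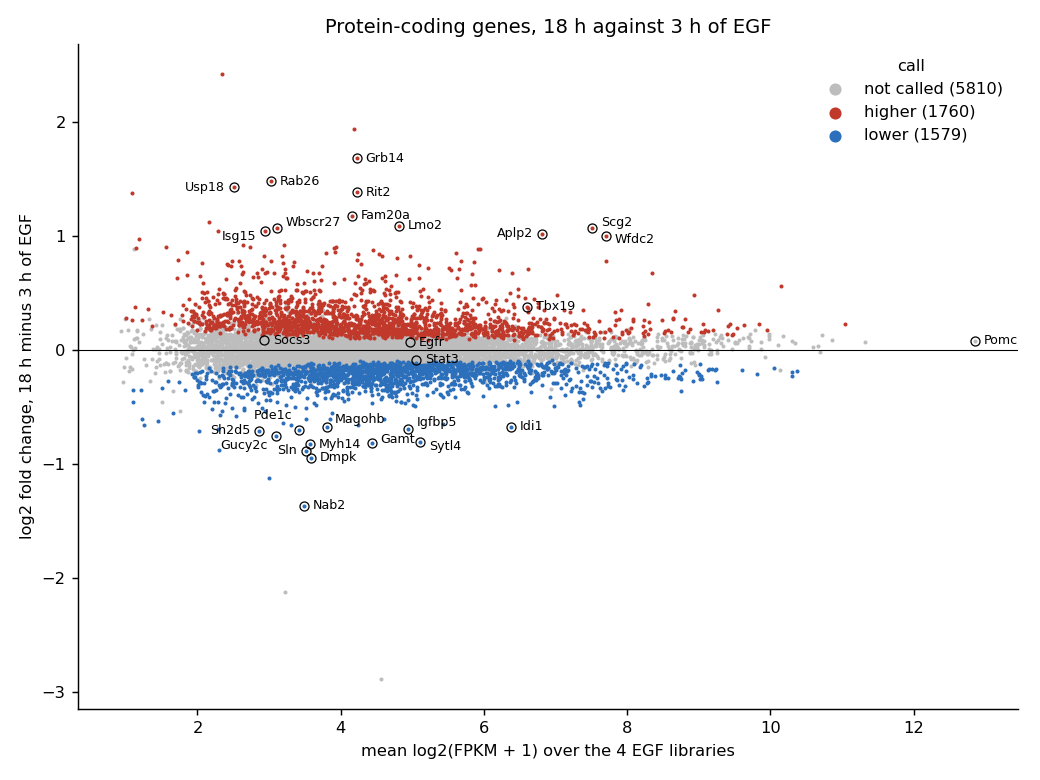
Log2 fold change of each of the 9149 protein-coding genes, 18 h minus 3 h of EGF (vertical axis), against its mean log2(FPKM + 1) over the 4 EGF libraries (horizontal axis). Red points are the 1760 genes called higher, blue the 1579 called lower and grey the 5810 not called. Circles mark the leading genes and 5 genes of the study's question, among which Pomc lies far to the right at a change of 0.08.

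Higher and lower genes differed in base composition. The median GC content of the longest transcript was 52.5% for genes called higher, 46.1% for genes called lower and 49.6% for those not called, and the median transcript lengths were 3042, 3471 and 3327 bases. After a correction of each library for GC content, added after seeing the data, 1715 genes were higher and 1639 lower, and 2687 of the 3339 calls were shared, all in the same direction. Of 162 genes chosen for naming, 6 lost their call and 3 gained one under that correction.

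The study's title names Pomc and STAT3, and neither Pomc nor Stat3 passed the test between the EGF times. Pomc (ENSMUSG00000020660, plus strand of chromosome 12, 3954951 to 3960618) stood at 8240 and 8307 FPKM in the EGFR water libraries, at 6981 and 7430 FPKM after 3 h and at 7429 and 7827 FPKM after 18 h. The higher 3 h library was just above the lower 18 h library, and the log2 fold change was 0.08 (95% interval −0.07 to 0.24, adjusted p = 0.364). Stat3, the transcription factor in the title (ENSMUSG00000004040, minus strand of chromosome 11, 100885098 to 100939540), had 28.6 and 28.1 FPKM in the EGFR water libraries. It stood above them at both EGF times, with 32.4 and 33.9 FPKM after 3 h and 31.3 and 31.1 FPKM after 18 h. Its log2 fold change of −0.09 between the EGF times missed the threshold (adjusted p = 0.0848), and it was called lower after median-ratio rescaling, quantile normalization or GC correction (adjusted p = 0.0120 to 0.0357). Socs3, a feedback inhibitor of JAK-STAT signalling (ENSMUSG00000053113, minus strand of chromosome 11, 117966079 to 117970047), was at 3.85 and 3.56 FPKM in EGFR water. It was above that at both EGF times, at 6.49 and 6.34 FPKM and then at 7.14 and 6.60 FPKM. Between the EGF times its log2 difference was 0.08 (adjusted p = 0.281). Egfr (ENSMUSG00000020122, plus strand of chromosome 11, 16752203 to 16918158) was read at the mouse locus, with 0.227 and 0.0663 FPKM in the Neo libraries and 25.9 and 27.5 FPKM in the EGFR water libraries, which differ as the genotype labels do. It gave 28.8 and 30.6 FPKM after 3 h and 31.9 and 30.3 FPKM after 18 h, which overlap (log2 difference 0.07, adjusted p = 0.505). Tbx19 (ENSMUSG00000026572, minus strand of chromosome 1, 165137855 to 165160773), the T-box factor TPIT that drives Pomc in corticotropes, did change. It stood at 84.9 and 83.8 FPKM after 3 h and at 113 and 107 FPKM after 18 h, with no overlap, and rose by 0.38 on the log2 scale (SE 0.0481, adjusted p = 0.00194). EGFR water libraries had 88.4 and 92.4 FPKM of Tbx19, between the 3 h and 18 h levels.

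Leading increases were of several kinds, among them a signalling adapter, small GTPases and secreted proteins, and the replicates lay close together in most of them. Grb14, an adapter that binds activated insulin and growth factor receptors (ENSMUSG00000026888, minus strand of chromosome 2, 64912476 to 65024987), went from 9.58 and 9.30 FPKM to 31.9 and 32.97 FPKM, against 7.05 and 7.07 FPKM in water (log2 fold change 1.68, SE 0.0376, adjusted p = 4.02e-06). Both 18 h libraries stood far above the others. Rab26, a small GTPase of secretory vesicles, measured 3.83 and 3.97 FPKM at 3 h and 13.2 and 12.2 FPKM at 18 h. Its log2 fold change of 1.48 (adjusted p = 0.000173) came on top of a difference of 0.73 between 3 h and water. Rit2, a RAS-like GTPase of neurons, had 11.4 and 10.8 FPKM in water and 10.6 and 10.6 FPKM after 3 h, nearly the same. After 18 h it reached 29.2 and 29.2 FPKM (log2 fold change 1.38, adjusted p = 1.27e-05).

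The next increases included Fam20a, a pseudokinase of the secretory pathway, with 10.5 and 11.2 FPKM after 3 h and 27.3 and 24.4 FPKM after 18 h (1.18 on the log2 scale). Lmo2, a LIM-domain cofactor of transcription, climbed at both times. It stood at 8.77 and 8.71 FPKM in water, 18.2 and 18.3 FPKM after 3 h and 39.8 and 40.1 FPKM after 18 h, and its log2 fold change between the EGF times was 1.09 (adjusted p = 1.27e-05). More abundant transcripts among the leaders encode a membrane protein and a secreted protein. Aplp2, a relative of the amyloid precursor protein, went from 76.2 and 79.3 FPKM to 159.6 and 158 FPKM, a log2 fold change of 1.02 (adjusted p = 1.27e-05). Wfdc2, a secreted whey-acidic-protein family member, went from 144 and 149 FPKM to 290.3 and 297 FPKM, and differed by just under 2-fold (adjusted p = 1.27e-05). Wbscr27, a predicted methyltransferase, lay at 5.92 and 6.06 FPKM in water, at 4.99 and 4.90 FPKM after 3 h and at 11.7 and 11.2 FPKM after 18 h. It was below water at 3 h and above it at 18 h, and its log2 fold change was 1.07 (adjusted p = 2.81e-05). The remaining leaders, Usp18, Isg15 and Scg2, are described with their gene groups. A still larger log2 fold change of 2.42 belonged to 9230104L09Rik, a gene known by a clone name and singled out after its values were seen, with 1.25 and 1.17 FPKM after 3 h and 10.6 and 10.96 FPKM after 18 h. Values of Isg15, Oas1a, Nab2, Gm13889, Idi1, Magohb, Hbp1, Etv5, Dusp5, Shc1, Gabarapl1, Pcna, Rpl18, Sgsh, Tpm4 and Nans are uncertain in source, since at least 20% of the transcript or of its exon bases is shared with or overlaps other genes and strand is not given.

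**Figure D2:**
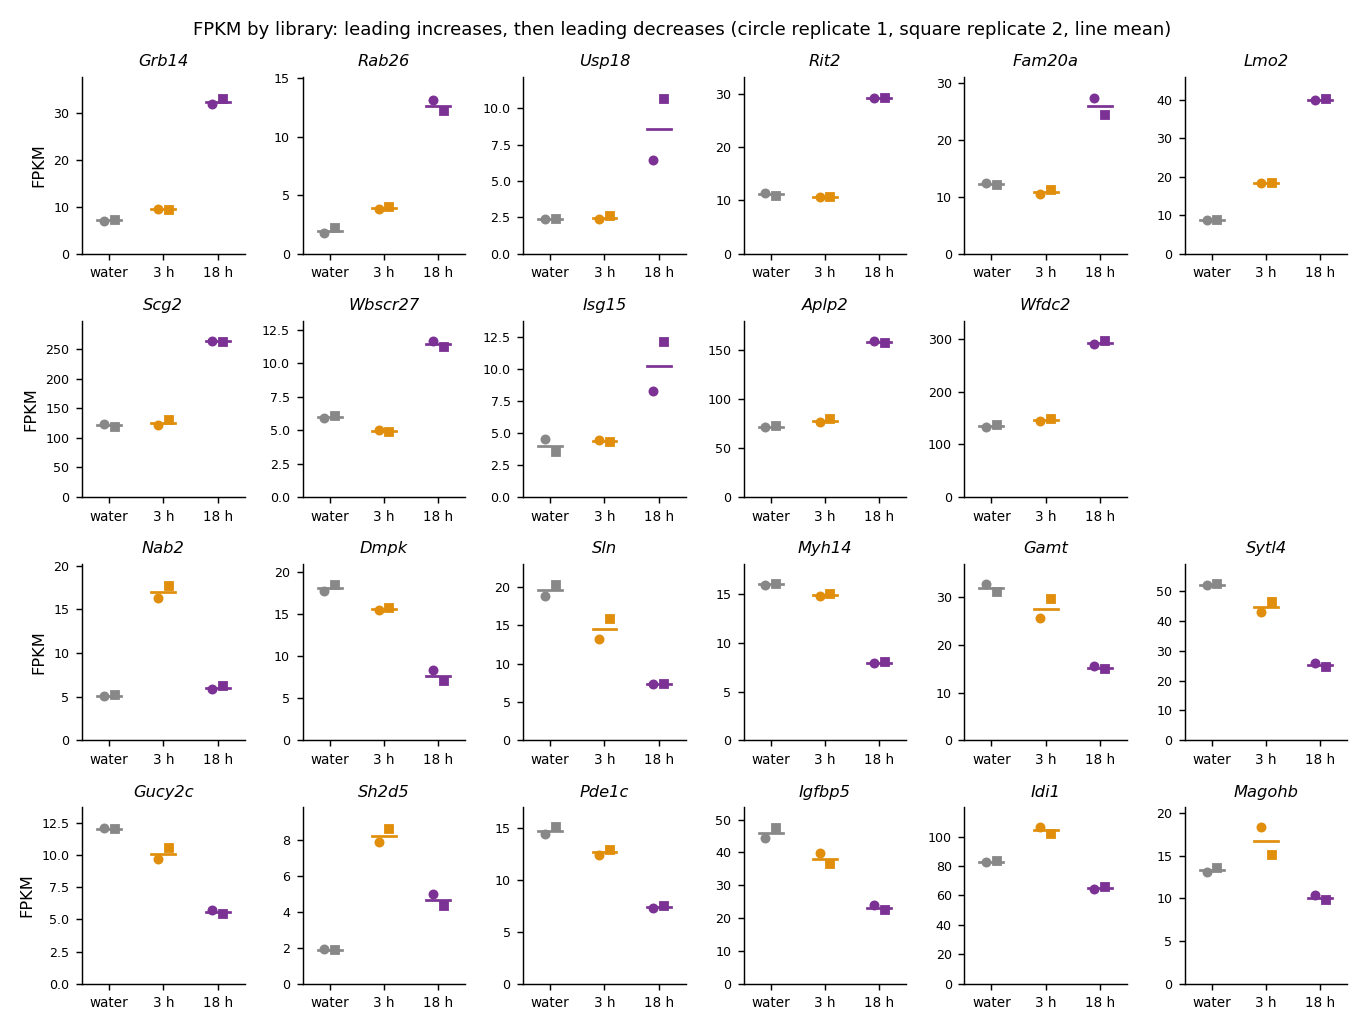
FPKM by library (vertical axes, from 0) of 11 leading called increases (upper 2 lines of panels) and the 12 leading called decreases (lower 2 lines), in the EGFR water, 3 h EGF and 18 h EGF groups. Circles are replicate 1, squares replicate 2 and lines the mean. Grb14 stands at 31.9 and 32.97 FPKM after 18 h, and Nab2 is high only in the 3 h libraries among the 6 shown.

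The leading decrease was Nab2, a corepressor of EGR transcription factors (ENSMUSG00000025402, minus strand of chromosome 10, 127660918 to 127668568), which had a peak at 3 h. Its levels were 5.10 and 5.19 FPKM in water, 16.3 and 17.7 FPKM after 3 h and 5.84 and 6.19 FPKM after 18 h. The log2 fold change between the EGF times was −1.36 (SE 0.0556, adjusted p = 2.81e-05), and the 18 h level was 0.19 above water on the same scale (adjusted p = 0.0365). Sh2d5, an SH2-domain adapter, had a like course, with 1.93 and 1.89 FPKM in water, 7.90 and 8.61 FPKM after 3 h and 5.001 and 4.36 FPKM after 18 h. It fell by 0.71 between the EGF times (adjusted p = 0.00127) and stayed above water at 18 h. The other gene called at least 2-fold lower was Gm13889, a predicted gene singled out after its values were seen, at 10.9 and 10.7 FPKM and then 4.40 and 4.45 FPKM (log2 fold change −1.12).

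The other 10 of the 12 leading decreases lay below water at 18 h. Dmpk, the kinase mutated in myotonic dystrophy, had 17.7 and 18.5 FPKM in water, 15.5 and 15.8 FPKM after 3 h and 8.30 and 7.03 FPKM after 18 h (log2 fold change between the EGF times −0.95, adjusted p = 0.000203). Sln, sarcolipin, an inhibitor of the sarcoplasmic calcium pump, measured 13.2 and 15.8 FPKM and then 7.39 and 7.39 FPKM, and fell by 0.88 (adjusted p = 0.000551). Myh14, a nonmuscle myosin heavy chain, went from 14.8 and 14.98 FPKM to 7.93 and 7.98 FPKM, a log2 fold change of −0.83. In each of these genes both 18 h libraries lay under all water and 3 h libraries. Gucy2c, a receptor guanylyl cyclase, was at 9.68 and 10.5 FPKM after 3 h and at 5.76 and 5.39 FPKM after 18 h (−0.76). Pde1c, a calcium-dependent phosphodiesterase, was at 12.4 and 12.9 FPKM and 7.32 and 7.48 FPKM (−0.70). Gamt, the last enzyme of creatine synthesis, fell by 0.81, and Igfbp5, an IGF-binding protein, by 0.69. Magohb, a subunit of the exon junction complex, was the least certain of them, at 18.3 and 15.04 FPKM and 10.3 and 9.78 FPKM (log2 fold change −0.67, adjusted p = 0.0108). Its call was lost without 3 h replicate 1 or 18 h replicate 2 (adjusted p = 0.0538 to 0.0635).

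Genes were sorted into lists by function, and a gene may stand in several. Each list was read by the number of members called, against 19.2% higher and 17.3% lower over all 9149 genes, and by their median. The plot of shares by list sets endoplasmic reticulum (ER) folding, interferon-induced, lysosomal and secretory genes on the side of increases. Ion channels, NF-kB targets and FOXO-type targets stand there too, with medians above that of the lysosomal list. Ribosome biogenesis, DNA replication, mitosis and cholesterol synthesis stand on the side of decreases.

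**Figure D3:**
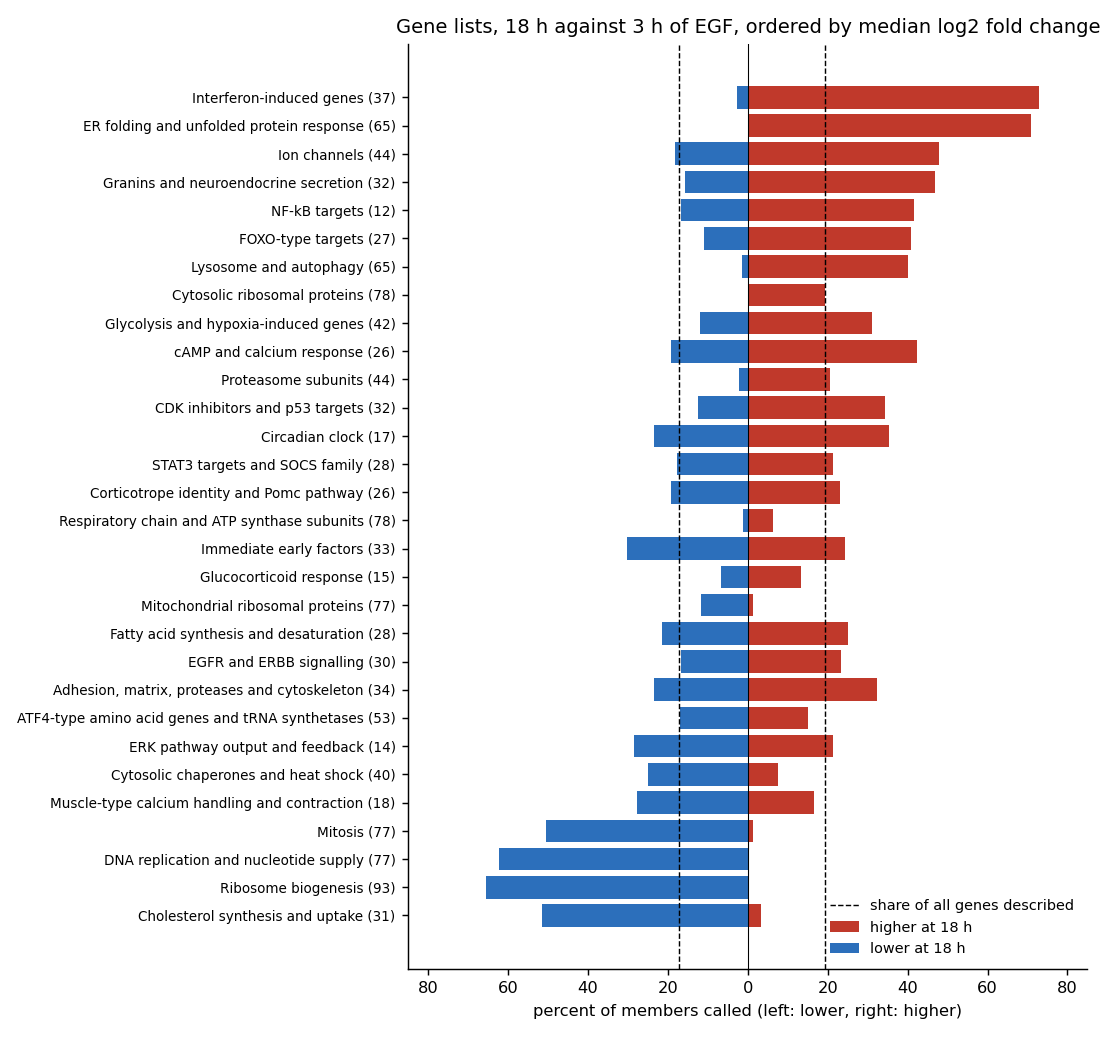
Percent of the members of each of 30 gene lists that were called higher (red, to the right) or lower (blue, to the left) at 18 h against 3 h of EGF, with the number of members in brackets and the lists in order of their median log2 fold change. Dashed lines mark the 19.2% and 17.3% of all 9149 genes. Interferon-induced and ER folding genes reach beyond 70% higher, and ribosome biogenesis and DNA replication genes beyond 60% lower.

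Interferon-induced genes had the highest median of the 30 lists with at least 5 members. Of 37 members, 27 were higher and 1 was lower, with a median log2 fold change of 0.29. Interferons induce many of these genes through the interferon-stimulated response element, a promoter sequence that STAT2 with IRF9 occupies. Usp18, the protease that removes the ubiquitin-like modifier ISG15 from proteins, had 2.37 and 2.38 FPKM in water, 2.35 and 2.58 FPKM after 3 h and 6.46 and 10.6 FPKM after 18 h (log2 fold change 1.43, adjusted p = 0.00178). Isg15 itself was at 4.43 and 4.31 FPKM after 3 h and at 8.31 and 12.1 FPKM after 18 h (1.04, adjusted p = 0.00419). In both genes the 18 h libraries lay above all others, and replicate 2 lay well above replicate 1. Oas1a, an antiviral oligoadenylate synthetase, went from 3.33 and 3.72 FPKM to 5.79 and 9.79 FPKM (0.92), and 98.7% of its transcript is shared with Oas1g. Bst2, the membrane protein tetherin, went from 9.82 and 10.2 FPKM to 15.2 and 24.8 FPKM (0.89). Oas1a and Bst2 lost their calls without 3 h replicate 1 (adjusted p = 0.0555 and 0.0570).

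Genes of antigen presentation on class I molecules were among those higher. B2m, the shared light chain of class I molecules, had 47.5 and 48.7 FPKM after 3 h and 64.3 and 68.3 FPKM after 18 h, a log2 fold change of 0.45 (adjusted p = 0.000904). H2-T23, a nonclassical class I heavy chain, had 37.1 and 39.7 FPKM and 61.99 and 64.9 FPKM (0.71, adjusted p = 0.000167). Psmb8, an immunoproteasome subunit, had 9.02 and 10.1 FPKM and 12.8 and 14.8 FPKM (0.49). In all of them the 18 h libraries lay above the 3 h libraries. Isg20, an exonuclease and the 1 member that was lower, went from 27.9 and 26.2 FPKM to 23.1 and 21.8 FPKM (−0.26), and its call was lost without 3 h replicate 1 or either 18 h replicate (adjusted p = 0.0546 to 0.116 with the alternative of no filter included). B2m, H2-T23 and Isg20 are named here after their values were seen.

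The 2 libraries of 18 h differed in this group. Replicate 2 was above replicate 1 in 33 of the 37 members and in 26 of the 27 called higher, with a median ratio of 1.08 in each set. Over all 9149 genes replicate 2 was above replicate 1 in 4842, with a median ratio of 1.004. The mean level of the list over EGFR water, in log2 units, was 0.07 and 0.12 after 3 h and 0.36 and 0.53 after 18 h, so both 18 h libraries exceeded both 3 h libraries. The number called higher was 15 without 3 h replicate 1, 17 without 18 h replicate 2 and 25 without 18 h replicate 1. What sets replicate 2 apart from replicate 1 in this group was not tested.

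**Figure D4:**
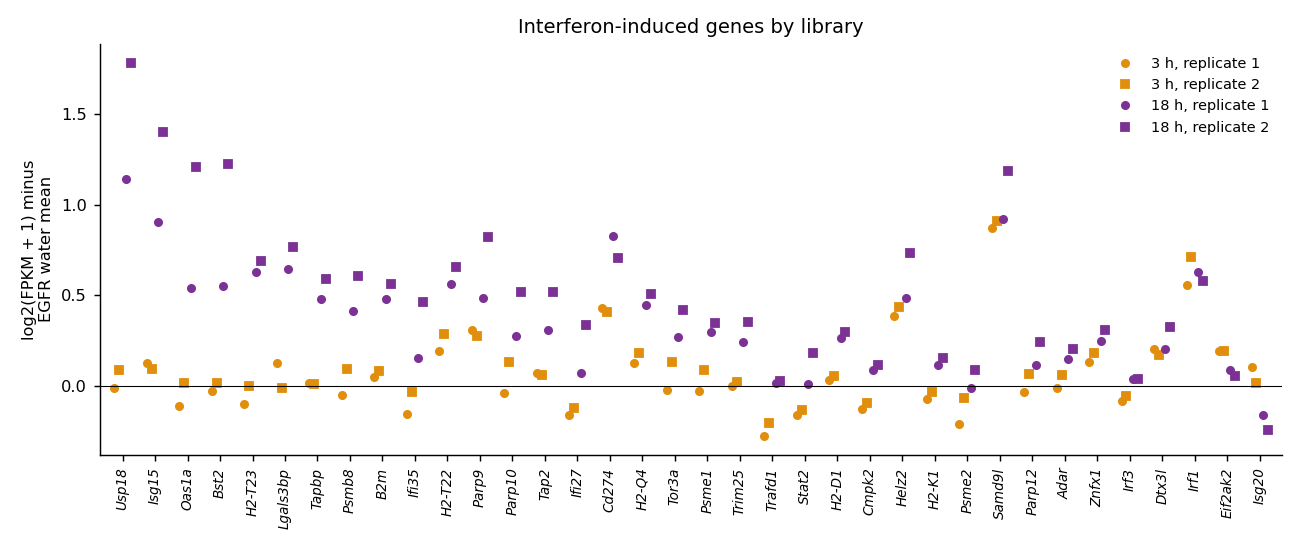
Log2(FPKM + 1) minus the mean of the EGFR water libraries (vertical axis) of 36 of the 37 interferon-induced genes, ordered by log2 fold change between the EGF times. Orange marks are the 3 h libraries and purple marks the 18 h libraries, circles replicate 1 and squares replicate 2. The purple square lies above the purple circle in 32 of the 36 genes drawn.

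Promoter windows of 5 of these genes are shown. They were chosen only among members called higher whose windows hold the core of the response element, largest increase first. RefSeq gives a promoter (250 bases before to 50 after the start) for 30 of the 37 genes, on GRCm38.p6 (mm10). The core of the element was read as GAAA, any 2 bases and GAAA again, on both strands with overlapping matches allowed. It was in 7 of the 30 (23.3%), against 2.92% of 7222 promoters of the genes compared and 2.98% of all 32851 promoters searched. Capitals mark the matched bases, on the gene's own strand, 5′ to 3′.
Isg15 (chr4:156200860-156200911, minus strand): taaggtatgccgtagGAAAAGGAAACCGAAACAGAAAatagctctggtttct
Oas1a (chr5:120907526-120907560, minus strand): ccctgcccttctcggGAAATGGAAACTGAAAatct
Bst2 (chr8:71537572-71537617, minus strand): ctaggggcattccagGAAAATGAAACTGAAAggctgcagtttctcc
H2-T23 (chr17:36032801-36032840, minus strand): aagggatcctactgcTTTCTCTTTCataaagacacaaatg
B2m (chr2:122147533-122147572, plus strand): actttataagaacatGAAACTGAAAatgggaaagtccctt
Isg15 holds 3 overlapping matches, from 78 to 57 bases before the start, and Oas1a and Bst2 hold 2 each. H2-T23 and B2m hold 1 each, in H2-T23 on the opposite strand. A match is a description of the letters only.

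Most genes of ER protein folding rose. Of 65 members, 46 were higher, 19 did not pass and 0 were lower, with a median log2 fold change of 0.18. The unfolded protein response matches the folding capacity of the ER to the load of secreted proteins, through ATF6, IRE1 with XBP1, and PERK. Pdia6, a protein disulfide isomerase, had 254 and 255 FPKM in water, 252 and 262 FPKM after 3 h and 406 and 416 FPKM after 18 h, a log2 fold change of 0.68 (SE 0.0353, adjusted p = 0.000103). The water and 3 h libraries overlapped and both 18 h libraries lay far above them. Fkbp11, a prolyl isomerase of the ER, went from 5.96 and 5.50 FPKM to 11.8 and 11.6 FPKM, the largest change of the list (0.92, adjusted p = 0.000125). Derl3, a channel component of ER-associated degradation, had 4.40 and 3.91 FPKM and then 5.71 and 5.62 FPKM (0.37). Edem1, a lectin of the same degradation route, had 11.4 and 13.6 FPKM and 16.98 and 17.5 FPKM (0.44), and lost its call without 3 h replicate 1 or either 18 h replicate (adjusted p = 0.0584 to 0.0869).

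Abundant chaperones of the list had smaller fold changes than Pdia6. Hspa5, the HSP70 chaperone BiP, stood at 822 and 877 FPKM after 3 h and at 981 and 1004 FPKM after 18 h (log2 fold change 0.22, adjusted p = 0.00783). Its call was lost without 18 h replicate 2 or after rescaling to a common sum (adjusted p = 0.0538 to 0.106). Hsp90b1, the HSP90 chaperone of the ER, went from 536 and 553 FPKM to 688 and 699.9 FPKM (0.35, adjusted p = 0.000829). Xbp1, the transcription factor of the response, had 137 and 140.1 FPKM and 134 and 131 FPKM and was not called (−0.06, adjusted p = 0.178). It was called lower after GC correction (adjusted p = 0.0200). Hspa5, Hsp90b1, Xbp1 and, further on, Syvn1 are named after their values were seen. The count of members higher was 29 without 18 h replicate 1, 28 without 18 h replicate 2 and 21 after rescaling to a common sum.

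Windows of 5 ER genes are shown, chosen only among members called higher, because they hold the ER stress element, which ATF6 and NF-Y bind. It was read as CCAAT, any 9 bases and CCACG, searched on both strands, and was in 9 of 53 promoters of the list (17.0%) and in 14 of the 7222 promoters of the genes compared (0.194%). Of those 14 genes, 8 were higher, 6 did not pass and 0 were lower.
Pdia6 (chr12:17266476-17266524, plus strand): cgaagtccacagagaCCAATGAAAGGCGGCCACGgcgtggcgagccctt
Derl3 (chr10:75893227-75893275, plus strand): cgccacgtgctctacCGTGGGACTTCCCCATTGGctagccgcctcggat
Hsp90b1 (chr10:86705518-86705566, minus strand): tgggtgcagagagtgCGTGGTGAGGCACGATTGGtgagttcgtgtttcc
Hspa5 (chr2:34772010-34772058, plus strand): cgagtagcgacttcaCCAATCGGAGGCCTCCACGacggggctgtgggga
Syvn1 (chr19:6046517-6046565, plus strand): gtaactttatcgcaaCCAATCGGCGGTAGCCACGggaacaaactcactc
Capitals mark the matched bases, which in Derl3 and Hsp90b1 read on the opposite strand. Syvn1, a ubiquitin ligase of ER-associated degradation, had 11.5 and 11.2 FPKM after 3 h and 13.5 and 13.2 FPKM after 18 h (log2 fold change 0.22, adjusted p = 0.0184), and lost its call without any 1 of the 4 EGF libraries (adjusted p = 0.0535 to 0.0912).

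Genes of dense-core granules and regulated secretion moved in both directions, with the granins higher. Of 32 members, 15 were higher and 5 lower, with a median log2 fold change of 0.14. Granins are acidic proteins that condense with hormones in granules. Scg2, secretogranin II, had 123 and 119 FPKM in water, 121 and 129.7 FPKM after 3 h and 265 and 263 FPKM after 18 h (log2 fold change 1.07, SE 0.0393, adjusted p = 1.66e-05). Chgb, chromogranin B, had 923 and 923 FPKM in water, 904 and 969 FPKM after 3 h and 1367 and 1391 FPKM after 18 h (0.56, adjusted p = 0.000494). In both genes the 3 h libraries lay at or around the water level and the 18 h libraries far above. Chga, chromogranin A, named after its values were seen, went from 1895 and 1987 FPKM to 2260 and 2295 FPKM (0.23), and was not called without 18 h replicate 2 or after rescaling to a common sum (adjusted p over these and 2 further alternatives 0.0537 to 0.233). Vgf, a neuropeptide precursor, climbed at both times, from 28.6 and 29.4 FPKM in water to 56.6 and 57.96 FPKM at 3 h and 95.1 and 92.4 FPKM at 18 h (0.70 between the EGF times, adjusted p = 0.000203).

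Sytl4, granuphilin, a RAB27 effector on granules, went the other way. It stood at 51.8 and 52.3 FPKM in water, 42.9 and 46.3 FPKM after 3 h and 25.8 and 24.5 FPKM after 18 h, and fell by 0.80 (SE 0.0433, adjusted p = 0.000109). The lower members were Sytl4, Vamp3, Cplx2, Syt7 and Gnas, and without 3 h replicate 1 or 18 h replicate 2 only 3 members were lower. Promoter windows are shown only of members called higher, here Scg2 and Chgb. Both hold a palindromic cAMP response element, TGACGTCA, the site of CREB-family factors. It was in 3 of 24 promoters of the list (12.5%), against 3.37% of the 7222 promoters of the genes compared, 2.80% of those of higher genes and 4.27% of those of lower genes. The site was not particular to this list. It was in 3 of 12 promoters of the ERK output list (25%) and 3 of 19 of the cAMP and calcium list (15.8%). In the DNA replication list it was in 1 of 67 (1.49%). The other gene of the secretion list with the site has no window here.
Scg2 (chr1:79440072-79440109, minus strand): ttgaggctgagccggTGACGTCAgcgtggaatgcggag
Chgb (chr2:132781555-132781592, plus strand): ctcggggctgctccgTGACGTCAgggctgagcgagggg
The matched bases, in capitals, lie 68 to 61 bases before the start in Scg2 and 72 to 65 bases before it in Chgb.

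Corticotrope and Pomc pathway genes showed no common direction. Of 26 members, 6 were higher (23.1%) and 5 lower (19.2%), shares near those of all genes compared, with a median of 0.014. Beside Tbx19, the higher members were Nfkb1, Pcsk1, Pam, Cpe and Pcsk1n. Pcsk1, the convertase that cuts POMC to ACTH, had 394 and 397 FPKM in water, 353 and 372 FPKM after 3 h and 438 and 443 FPKM after 18 h (log2 fold change 0.28, adjusted p = 0.00202). Cpe, carboxypeptidase E, had 474 and 514 FPKM and 572 and 585 FPKM (0.23), and was not called without 3 h replicate 1, without either 18 h replicate or after rescaling to a common sum (adjusted p = 0.0609 to 0.0833). Nfkb1, a subunit of NF-kB counted here as a Pomc regulator, went from 23.1 and 23.9 FPKM to 32.3 and 31.9 FPKM (0.43, adjusted p = 0.000537). Sstr5, a somatostatin receptor that restrains ACTH release, went from 13.7 and 13.95 FPKM to 9.51 and 9.71 FPKM and fell by 0.48 (adjusted p = 0.000188). Neurod1, a corticotrope transcription factor, fell by 0.19, and its call was lost without 3 h replicate 1 or either 18 h replicate (adjusted p = 0.0603 to 0.0658). Pcsk1, Cpe and Neurod1 are named after their values were seen. Lower members were 3 without 3 h replicate 1, 2 without 18 h replicate 1 and 3 without 18 h replicate 2.

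Lysosome and autophagy genes that passed the test were higher, with 1 exception. Of 65 members, 26 were higher, 38 did not pass and 1 was lower, with a median of 0.11. The list's median log2 difference from water was −0.09 at 3 h and 0.04 at 18 h. Wipi1, a phosphoinositide-binding protein of autophagosome formation, had 4.09 and 3.76 FPKM after 3 h and 6.62 and 6.16 FPKM after 18 h (log2 fold change 0.58, adjusted p = 0.000804). Hexa, a lysosomal hexosaminidase subunit, had 49.5 and 53.5 FPKM and 69.2 and 67.4 FPKM (0.40), and Sgsh, a lysosomal sulfatase, had 4.86 and 4.71 FPKM and 7.03 and 6.85 FPKM (0.46). In these 3 genes the 18 h libraries lay above the water libraries too. Gabarapl1, an ATG8-family autophagy protein, was at 31.8 and 30.6 FPKM in water, at 25.2 and 26.7 FPKM after 3 h and at 34.3 and 35.7 FPKM after 18 h. The member lower was Atg5, a conjugation factor named after its values were seen (−0.14), whose call was lost without 18 h replicate 1 or after rescaling to a common sum (adjusted p = 0.0515 to 0.0728). Higher members were 16 without 3 h replicate 1, 15 without 18 h replicate 1, 17 without 18 h replicate 2 and 14 after rescaling to a common sum.

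Targets of FOXO factors, which AKT keeps out of the nucleus, had a median log2 difference from water of −0.13 at 3 h and of 0.01 at 18 h. Of 27 members, 11 were higher and 3 lower at 18 h than at 3 h, with a median of 0.12. Hbp1, a repressor of growth genes, had 27.4 and 26.5 FPKM in water, 12.3 and 13.97 FPKM after 3 h and 23.8 and 24.8 FPKM after 18 h (log2 fold change between the EGF times 0.84, adjusted p = 0.000187). Klhl24, a ubiquitin ligase adapter, had 15.5 and 14.7 FPKM in water, 6.24 and 5.80 FPKM after 3 h and 10.7 and 11.1 FPKM after 18 h (0.76, adjusted p = 0.000150). The 18 h libraries of both genes lay between those of 3 h and water. Fbxo32, the ubiquitin ligase atrogin-1, went from 1.61 and 1.66 FPKM to 2.96 and 3.21 FPKM (0.63), under its 4.78 and 4.99 FPKM in water. Foxo3 itself went from 11.2 and 11.6 FPKM to 15.9 and 15.5 FPKM (0.43, adjusted p = 0.000560) and had 15.3 and 15.8 FPKM in water. The lower members were Cited2, a transcriptional coregulator named after its values were seen (−0.34), Trib1 and Sod2.

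DNA replication genes were lower at 18 h. Of 77 members, 48 were lower, 29 did not pass and 0 were higher, with a median of −0.17. Against water the list had a median log2 difference of −0.07 at 3 h and −0.23 at 18 h. Ccne2, cyclin E2, which drives entry into S phase, had 102 and 96.96 FPKM in water, 103 and 102 FPKM after 3 h and 73.4 and 75.7 FPKM after 18 h, and fell by 0.45 (adjusted p = 0.000466). Rrm2, the regulated subunit of ribonucleotide reductase, had 63.4 and 63.4 FPKM in water, 72.3 and 71.7 FPKM after 3 h and 54.7 and 53.97 FPKM after 18 h (−0.40, adjusted p = 0.000203). Ccne2 was near the water level at 3 h, whereas Rrm2 was above water at 3 h and below it at 18 h. Cdc6, a loader of the replicative helicase, went from 17.1 and 17.7 FPKM to 13.8 and 13.1 FPKM (−0.35), and Pcna, the sliding clamp of DNA polymerases, named after its values were seen, from 336 and 354 FPKM to 299.9 and 297 FPKM (−0.21). E2f7, a repressor among the E2F factors that also stands in the corticotrope list, had 9.09 and 7.77 FPKM and 6.56 and 6.26 FPKM (−0.34), and its call was lost without 3 h replicate 1 or either 18 h replicate (adjusted p = 0.0522 to 0.0770). Lower members were 28 without 18 h replicate 1 and 31 without 18 h replicate 2. An E2F site, TTTNGCGC on either strand, was in 6 of the 67 promoters of the list that were searched (8.96%), against 2.62% of the 7222 promoters of the genes compared. The mitosis list also had it in 6 of 67.

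Genes of mitosis were lower too. Of 77 members, 1 was higher and 39 were lower, with a median of −0.12. The median log2 difference of the list from water was −0.10 at 3 h and −0.23 at 18 h. Condensin genes were among the largest decreases. Ncapg2, a condensin II subunit, had 27.9 and 26.98 FPKM after 3 h and 20.6 and 21.9 FPKM after 18 h (log2 fold change −0.36, adjusted p = 0.00297). Ncapg, a condensin I subunit, had 34.1 and 34.4 FPKM and 26.4 and 27.6 FPKM (−0.33), and Smc2, their shared ATPase, had 60.97 and 56.8 FPKM and 48.4 and 45.4 FPKM (−0.32). Cenpk, a kinetochore protein, fell by 0.37 (adjusted p = 0.00215). In these 4 genes both 18 h libraries lay under both 3 h libraries and under water. Mki67, the proliferation marker Ki-67, named after its values were seen, had 48.9 and 47.5 FPKM in water, 56.7 and 52.8 FPKM after 3 h and 48.3 and 45.8 FPKM after 18 h (−0.22). Its call was lost without 18 h replicate 2 (adjusted p = 0.0675). The member higher was Kif2c, a microtubule depolymerase (0.11, adjusted p = 0.0358), also named after its values were seen, which lost its call without any 1 of the EGF or EGFR water libraries and under 4 other alternatives (adjusted p = 0.0513 to 0.447). Lower members were 21 without 18 h replicate 1 and 20 without 18 h replicate 2.

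Ribosome biogenesis factors were above water at 3 h and below it at 18 h on average. Their mean level over EGFR water, in log2 units, was 0.06 and 0.10 after 3 h and −0.091 and −0.079 after 18 h, against −0.031 and −0.0075, then −0.0051 and −0.0029, over all genes compared. Of 93 members, 61 were lower, 32 did not pass and 0 were higher, with a median of −0.17. Brix1, an assembly factor of the large subunit, had 22.9 and 21.6 FPKM in water, 29.7 and 28.1 FPKM after 3 h and 18.2 and 19.2 FPKM after 18 h, and fell by 0.60 (adjusted p = 0.00744). Wdr43, a factor of small-subunit processing, had 34.9 and 34.5 FPKM in water, 42.99 and 44.1 FPKM after 3 h and 32.9 and 34.1 FPKM after 18 h (−0.37, adjusted p = 0.000711). Both stood higher at 3 h than at 18 h or in water. Rrp8, a nucleolar methyltransferase, fell by 0.39, and Cirh1a, a nucleolar processing factor, by 0.34. Nop58, a core protein of box C/D small nucleolar particles, named after its values were seen, went from 340.2 and 341 FPKM to 274 and 284 FPKM (−0.29, adjusted p = 0.00353). Lower members were 35 without 18 h replicate 1.

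Cytosolic ribosomal proteins themselves had a different and less certain course. Of 78 members, 15 were higher (19.2%, the share of all genes compared), 63 did not pass and 0 were lower, with a median of 0.097. Rpl18, a protein of the large subunit, had 616 and 663 FPKM after 3 h and 746 and 749 FPKM after 18 h (0.23, adjusted p = 0.00890), and Rps14, of the small subunit, had 706 and 766 FPKM and 859 and 853 FPKM (0.22). Both lost their calls without 18 h replicate 2 or after rescaling to a common sum (adjusted p over all alternatives that end a call 0.0515 to 0.0795 for Rpl18 and 0.0506 to 0.123 for Rps14). The count of higher members was 4 without 3 h replicate 1, 38 without 3 h replicate 2, 3 without 18 h replicate 1 and 0 without 18 h replicate 2. It was 0 after rescaling to a common sum, 28 after median-ratio rescaling, 31 with protein-coding genes only and 3 with only the 4 EGF libraries fitted.

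Cholesterol synthesis genes were lower at 18 h than at 3 h. Of 31 members, 1 was higher and 16 were lower, with a median of −0.17, and 13 to 18 were lower with any 1 of the 4 EGF libraries left out. Sterol-sensing SREBP factors drive these genes. Hmgcs1, a synthase of the early pathway, had 122 and 121 FPKM in water, 152 and 144 FPKM after 3 h and 105 and 106 FPKM after 18 h, and fell by 0.49 (adjusted p = 0.000753). It was above water at 3 h and under it at 18 h. Idi1, the isomerase of isoprenoid units, had 107 and 102 FPKM and 64.5 and 65.7 FPKM (−0.67), Hsd17b7, a reductase of the late pathway, had 23.01 and 22.5 FPKM and 13.6 and 14.5 FPKM (−0.66), and Msmo1, a sterol oxidase, had 191 and 184 FPKM and 133 and 139 FPKM (−0.46). The member higher was Npc1, the lysosomal cholesterol exporter, named after its values were seen (0.18, adjusted p = 0.0439). It lost its call under 11 alternatives (adjusted p = 0.0561 to 0.184).

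**Figure D5:**
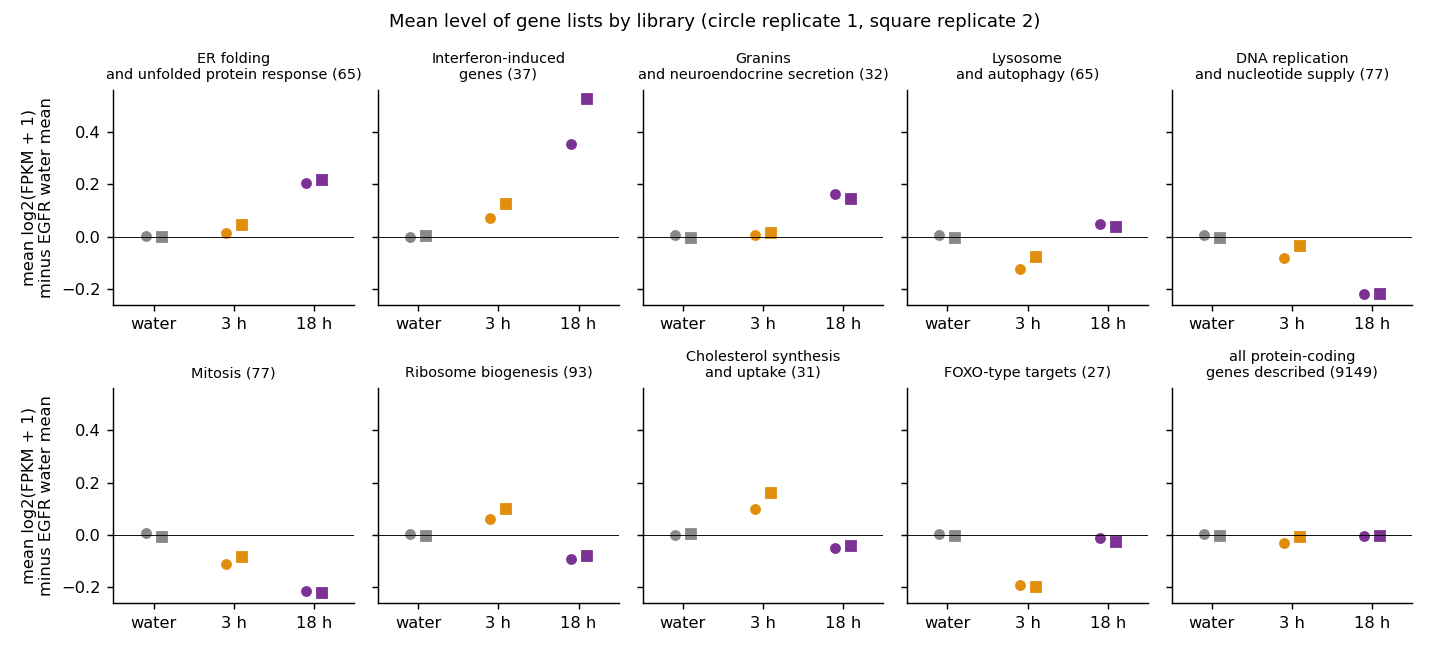
Mean over the members of 9 gene lists and of all 9149 genes of log2(FPKM + 1) minus the mean of the EGFR water libraries (vertical axis), by library. Grey marks are EGFR water, orange 3 h and purple 18 h of EGF, circles replicate 1 and squares replicate 2. Cholesterol synthesis and ribosome biogenesis lie above 0 at 3 h and below it at 18 h, and FOXO-type targets return from below −0.19 to near 0.

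The ERK output and feedback list had a median above water at both times, and its members moved both ways between them. Against water, 33.9% of the 9149 genes were called at 3 h and 34.9% at 18 h, in either direction. The water comparisons share their control libraries, and each uses 1 of the groups compared here, so their values are given side by side only. The median log2 difference of the 14 members of the ERK list from water was 0.60 at 3 h and 0.55 at 18 h. Between the EGF times 3 were higher (21.4%) and 4 lower (28.6%), against 19.2% and 17.3% of all genes compared. The median was −0.023, and with 14 members these shares are not read as a trait of the list. Etv5, an ETS factor induced through ERK, had 9.72 and 9.997 FPKM in water, 46.7 and 47.8 FPKM after 3 h and 71.7 and 69.6 FPKM after 18 h (log2 fold change between the EGF times 0.57, adjusted p = 0.000173). Hbegf, an EGFR ligand that ERK induces, had 6.30 and 6.45 FPKM in water, 16.8 and 16.8 FPKM after 3 h and 10.5 and 10.9 FPKM after 18 h, and fell by 0.61 (adjusted p = 0.000152). So 1 ERK output went on climbing while another declined. Dusp4, a nuclear ERK phosphatase, went from 56.7 and 58.02 FPKM to 47.3 and 47.2 FPKM (−0.27), and Dusp5, another, from 106 and 109 FPKM to 99.3 and 99.6 FPKM, which was not called (−0.11, adjusted p = 0.106). Dusp5 was called lower without either Neo replicate or after GC correction (adjusted p = 0.00952 to 0.0474), and both phosphatases are named after their values were seen. Spred1, an inhibitor of RAS-RAF signalling, fell by 0.33, and its call was lost without 3 h replicate 1 or either 18 h replicate (adjusted p = 0.0527 to 0.0560). Without 18 h replicate 2 only 2 members were lower.

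Of the 30 members of the EGFR and ERBB list, 7 were higher (23.3%) and 5 lower (16.7%), near the 19.2% and 17.3% of all genes compared (median −0.0087). Erbb3, a partner receptor of EGFR, had 5.59 and 5.55 FPKM in water, 3.44 and 3.52 FPKM after 3 h and 5.23 and 4.98 FPKM after 18 h (0.45 between the EGF times, adjusted p = 0.000904). Shc1, the adapter that links receptors to RAS, had 28.1 and 29.2 FPKM and 40.4 and 39.8 FPKM (0.47, adjusted p = 0.000234). Pik3r1, a regulatory subunit of PI3K, went from 16.1 and 15.8 FPKM to 12.2 and 11.7 FPKM and fell by 0.39 (adjusted p = 0.00329). Erbb3 and Pik3r1 were near their water levels again at 18 h, at which Pik3r1 had 11.4 and 10.8 FPKM. Errfi1, an inhibitor of the EGFR kinase, had 9.86 and 9.70 FPKM in water, 14.7 and 15.96 FPKM after 3 h and 13.6 and 12.9 FPKM after 18 h (−0.19), and was not called without 3 h replicate 2 or 18 h replicate 2 or with only the 4 EGF libraries fitted (adjusted p = 0.0541 to 0.107). Counts of higher and lower members were 4 and 4 without 18 h replicate 1, 7 and 3 without 3 h replicate 2, 5 and 2 without 18 h replicate 2, 3 and 4 with common-sum rescaling, and 5 and 3 with only the 4 EGF libraries fitted.

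Immediate early factors with values also moved both ways, with 8 of 33 higher (24.2%) and 10 lower (30.3%). Over all genes compared the shares were 19.2% and 17.3%, and the median of the list was −0.0019. Fos and Egr1 were not analysed here. Maff, a small MAF factor, had 4.64 and 4.36 FPKM in water, 10.2 and 10.7 FPKM after 3 h and 14.2 and 14.1 FPKM after 18 h (0.40, adjusted p = 0.00260). Atf3, a stress-induced factor, had 13.7 and 14.1 FPKM in water, 9.88 and 10.99 FPKM after 3 h and 14.3 and 13.3 FPKM after 18 h (0.37, adjusted p = 0.00387), and Klf11, a Krüppel-like factor, had 2.91 and 3.39 FPKM and 4.46 and 4.49 FPKM (0.40). Maff was above water at both times, whereas Atf3 was low at 3 h and back at the water level at 18 h. Without 18 h replicate 1 only 6 members were lower, and with common-sum rescaling 5 were higher.

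Of 28 STAT3 targets and SOCS family genes, 6 were higher (21.4%) and 5 lower (17.9%), near the shares of all genes compared. Their median was 0.026, and log2 fold changes ran from −0.26 to 0.27. Pim1, a kinase that STAT3 and STAT5 induce, had 8.20 and 8.06 FPKM in water, 5.77 and 5.90 FPKM after 3 h and 6.90 and 7.63 FPKM after 18 h (0.27, adjusted p = 0.00693). Ptpn2, a phosphatase of JAK and STAT proteins, went from 34.9 and 36.3 FPKM to 28.9 and 30.3 FPKM (−0.26, adjusted p = 0.00258). Stat2, a transcription factor of interferon signalling, had 6.10 and 6.22 FPKM and 6.98 and 7.997 FPKM (0.24), but was not called without either 3 h replicate or 18 h replicate 2, nor under 2 other alternatives (adjusted p = 0.0559 to 0.110). Socs4 fell by 0.23, and lost its call under 10 alternatives (adjusted p = 0.0552 to 0.178). Higher and lower members were 2 and 3 without 3 h replicate 1, 3 and 2 without 18 h replicate 1, 2 and 2 without 18 h replicate 2, 1 and 3 with common-sum rescaling, and 2 and 3 with only the 4 EGF libraries fitted.

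Cell cycle inhibitors and p53 targets had more members higher than lower, with 11 of 32 higher (34.4%), 4 lower (12.5%) and a median of 0.06. Their median log2 difference from water was −0.05 at 3 h and −0.0015 at 18 h. Cdkn2b, the CDK inhibitor p15, had 4.66 and 4.77 FPKM in water, 25.2 and 25.6 FPKM after 3 h and 42.1 and 44.6 FPKM after 18 h (log2 fold change between the EGF times 0.74, SE 0.0397, adjusted p = 0.000109). Bbc3, the proapoptotic protein PUMA, had 18.5 and 17.6 FPKM in water, 14.3 and 15.1 FPKM after 3 h and 19.9 and 22.0001 FPKM after 18 h (0.48). Cdkn2b climbed at both times, while Bbc3 dipped at 3 h and exceeded water at 18 h. Sesn1, a stress-induced inhibitor of mTORC1 signalling, went from 8.08 and 8.12 FPKM to 11.3 and 10.9996 FPKM (0.42), against 10.7 and 10.9 FPKM in water. Trp53inp1, a p53-induced protein, went from 12.2 and 11.2 FPKM to 15.04 and 17.2 FPKM (0.43), under its 20.5 and 19.1 FPKM in water.

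Genes of cAMP and calcium signalling were higher in 11 of 26 cases (42.3%) and lower in 5 (19.2%), with a median of 0.07. Beside Vgf, Rgs4, a brake on G proteins, had 1.02 and 0.923 FPKM in water, 2.38 and 2.48 FPKM after 3 h and 3.85 and 4.49 FPKM after 18 h (0.59, adjusted p = 0.00278). Pde4b, a cAMP phosphodiesterase, had 8.47 and 8.42 FPKM and 12.8 and 12.2 FPKM (0.52), and Prkar1b, a regulatory subunit of protein kinase A, had 4.81 and 4.89 FPKM and 6.90 and 7.09 FPKM (0.45). Higher and lower members were 7 and 1 without 3 h replicate 1, 10 and 2 without 3 h replicate 2, 5 and 2 without 18 h replicate 1 and 7 and 2 without 18 h replicate 2. With an FPKM filter of 5 they were 7 and 5. Of 15 glucocorticoid response genes, 2 were higher (13.3%) and 1, Errfi1, was lower (6.67%). Sgk1, a kinase that glucocorticoids induce, had 58.6 and 58.3 FPKM in water, 20.5 and 20.97 FPKM after 3 h and 27.97 and 24.9 FPKM after 18 h (0.34 between the EGF times, adjusted p = 0.00432), so it rose between the EGF times at levels well under water. Mt1, a metallothionein, had 184 and 169.995 FPKM and 213 and 209.9 FPKM (0.26), with a call lost under 5 alternatives, among them without 3 h replicate 2 or either 18 h replicate (adjusted p = 0.0520 to 0.0917).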

How the data were processed

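RNA sequencing was carried out on 8 libraries in 4 groups of 2 (EGFR cells with 3 h or 18 h of EGF or with water, and Neo cells with water). The deposited tables hold FPKM per locus, per the file headers. Tools named by the submitters' processing notes are TopHat2 2.0.8, HTSeq 0.5.4, Trimmomatic 0.22 and DESeq, with the mouse build mm10 and no stated order. Which program gave the FPKM is not stated there. Read counts and library depths were not used here. From low values of genes at 0 elsewhere, 1 read was worth 0.932 to 1.09 times its value in 3 h replicate 1, so relative depths were close. FPKM of an abundant RNA class lowers all others, and the member genes of this comparison summed to between 417521 and 432525 FPKM in the 4 EGF libraries.

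Loci with at least 1 FPKM in at least 2 of all 8 libraries were fitted (10874 of 12193). The genes compared are the 9149 protein-coding loci with at least 1 FPKM in at least 2 of the 4 EGF libraries. Log2(FPKM + 1) of all 8 libraries was fitted by group with limma 3.58.1 in R 4.3.3, with a variance trend (4 residual and 3.29 prior degrees of freedom). P-values were adjusted by Benjamini-Hochberg over the 10874 loci, with a threshold of 0.05. Scripts were tested on simulated data. Tables and plots were made with Python 3.11.15, pandas 2.3.3, numpy 2.4.6 and matplotlib 3.10.9, and shared sequence was found with minimap2 2.31.

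Genes named are Pomc, Egfr, Stat3, Socs3 and Tbx19, the 12 largest increases and 12 largest decreases among called genes with separate libraries, at least 5 FPKM on average and no clone or predicted name, and, per list, up to 4 called members with the largest change (2 most abundant members where fewer than 2 were called). Some genes so chosen are not reported here. The genes compared and the lists were chosen with earlier results of these data known. Alternatives were another pseudocount (0.1), no filter or a minimum of 5 FPKM, median-ratio, common-sum and quantile scaling, protein-coding genes only, only the 4 EGF libraries, no variance trend, stricter thresholds, replicate number as a block and each library left out in turn. Promoters are RefSeq's on GRCm38.p6, with those of chromosome 18 left out, matched by symbol or gene identifier for 7222 of the 9149 genes. Only the 250 bases before the start were searched for motifs.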

Additional observations from a re-analysis of the deposited data

Results flagged for a closer look

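In 16 of 162 genes chosen for naming, the differences from water at 3 h and at 18 h were each called and had opposite signs. The difference between them, which is the log2 fold change between the EGF times, was also called by limma (adjusted p below 0.05). Most of the 162 genes were chosen for a called change between the EGF times, so that call follows from the choice. Pcsk1 and Gm13889 were chosen after their values were seen. How common this course is among all genes compared was not tested, and the 16 genes are only described. The comparisons with water share their control libraries. In 5 of the 16 genes the level was below water at 3 h and above it at 18 h. The log2 difference between the times was 1.07 for Wbscr27, 0.525 for Pfkfb4, a regulator of glycolysis, 0.481 for Bbc3, 0.417 for Gabarapl1 and 0.279 for Pcsk1.

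The other 11 genes were above water at 3 h and below it at 18 h. Those of sterol synthesis differed by −0.456 (Msmo1), −0.488 (Hmgcs1), −0.659 (Hsd17b7) and −0.672 (Idi1). The nucleolar genes differed by −0.345 (Cirh1a) and −0.391 (Rrp8), Rrm2 by −0.4, and the clock repressor Cry1 by −0.654. Elovl5, a fatty acid elongase, differed by −0.315, Tpm4, a tropomyosin, by −0.332, and the predicted gene Gm13889 by −1.12.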

How the results depend on the processing

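Every gene called both in the fit reported and under an alternative kept its direction, in each of 19 alternatives. The counts of 1760 higher and 1579 lower genes became 801 higher after rescaling to a common sum, 878 and 697 at an adjusted p below 0.01, and 104 and 26 with a fold of at least 1.5. Leaving out each library in turn gave 979 to 1728 higher and 756 to 1594 lower genes, with the lowest counts without 18 h replicate 1. Fitting with only the 4 EGF libraries gave 1363 and 1183, and no filter 1528 and 1441. Rescaling to a common sum moved the median of all genes from 0.0043 to −0.040, and the share of calls that were higher from 52.7% to 39.9%. Replicate numbers did not pair the samples (correlations of same-numbered deviations −0.186 to 0.133), and the fit with the replicate block gave 1645 higher and 1433 lower. In that fit 7 of 162 genes chosen for naming lost their call. Among those 162, 31 lost their call without 18 h replicate 2, 29 without 18 h replicate 1, 24 without 3 h replicate 1, 22 after rescaling to a common sum and 11 without 3 h replicate 2. The log2 difference of the gene Nans turned from −2.88 (not called) to 0.25 (called, adjusted p = 0.0283 in limma's test) without 18 h replicate 1, the library in which it is listed at 0, and was −6.01 (called) without 18 h replicate 2. With 2 libraries a group, where 1 was left out the lone library was assumed to vary like the other groups. The cause of these shifts was not tested. Read depth is not known, so no limit from counts could be set for genes of low FPKM.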

Other observations

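Of 44 ion channel genes, 21 were higher (47.7%) and 8 lower (18.2%), with a median log2 fold change of 0.14. Gria2, an AMPA receptor subunit, had 16.96 and 17.7 FPKM in water, 19.5 and 18.4 FPKM after 3 h and 30.5 and 28.2 FPKM after 18 h (log2 fold change between the EGF times 0.60). Ano1, a calcium-activated chloride channel, went from 8.10 and 8.34 FPKM to 5.38 and 5.34 FPKM and fell by 0.53, and Kcnq1, a potassium channel, fell by 0.52. Without 18 h replicate 1, 13 were higher and 4 lower, and lower members were 4 without 3 h replicate 1 and 3 without 18 h replicate 2. Of 18 genes of muscle-type calcium handling, 3 were higher (16.7%) and 5 lower (27.8%), among them Sln and Itpr3, an IP3 receptor that fell by 0.48. Only 1 was higher after rescaling to a common sum.

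Of 17 clock genes, 6 were higher (35.3%) and 4 lower (23.5%), with a median of 0.046. Arntl, the activator BMAL1, had 9.73 and 9.58 FPKM in water, 7.37 and 7.47 FPKM after 3 h and 10.3 and 10.7 FPKM after 18 h, a log2 fold change between the EGF times of 0.45. Nr1d2, the repressor REV-ERB beta, had 14.5 and 14.1 FPKM, 9.20 and 9.29 FPKM and 13.7 and 13.9 FPKM in the same order (0.53). Cry1, a repressor of BMAL1, went from 11.3 and 11.5 FPKM to 6.9998 and 6.78 FPKM and fell by 0.65. Bhlhe40, a repressor of clock genes, had 2.92 and 2.15 FPKM in water, 9.61 and 10.6 FPKM after 3 h and 7.29 and 6.67 FPKM after 18 h (−0.48), and lost its call without 3 h replicate 2 or 18 h replicate 2 (adjusted p = 0.0660 to 0.0707 in limma's test). Without 3 h replicate 1 only 3 clock genes were higher, as after rescaling to a common sum, and 2 were lower without 3 h replicate 2 or 18 h replicate 2. About 29.6% of the Nr1d2 transcript is shared with another locus.

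Genes of adhesion, matrix and cytoskeleton were higher in 11 of 34 cases (32.4%) and lower in 8 (23.5%). Over all genes compared the shares were 19.2% and 17.3%. Itgb5, an integrin subunit, went from 6.48 and 7.20 FPKM to 11.8 and 12.3 FPKM (0.74), and Anxa5 and Anxa2, calcium-dependent membrane binders, rose by 0.53 and 0.45. Higher and lower members were 6 and 3 without 18 h replicate 1 and 5 and 5 without 18 h replicate 2, 6 were higher without 3 h replicate 1 or with common-sum rescaling, and 5 were lower without 3 h replicate 2. Of 12 NF-kB targets, 5 were higher (41.7%) and 2 lower (16.7%). Nfkbie, an inhibitor of NF-kB, had 1.66 and 1.73 FPKM in water, 4.93 and 5.24 FPKM after 3 h and 3.13 and 3.06 FPKM after 18 h (−0.57). Without any 1 of the EGF libraries 1 NF-kB target was lower.

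Metabolic groups had small medians. Of 42 genes of glycolysis and hypoxia 13 were higher (31.0%) and 5 lower (11.9%), with a median of 0.086. Aldoc, an aldolase, had 33.2 and 33.9 FPKM and then 50.9 and 46.9 FPKM (0.53). Higher members were 4 without 3 h replicate 1, 4 without 18 h replicate 1 and 5 after rescaling to a common sum, and 1 was lower without 3 h replicate 2 or either 18 h replicate and 3 without 3 h replicate 1. Of 28 genes of fatty acid synthesis and desaturation 7 were higher and 6 lower, with Lpin1, a phosphatidate phosphatase, at 9.89 and 9.96 FPKM in water, 6.40 and 6.81 FPKM after 3 h and 11.1 and 10.4 FPKM after 18 h (0.63). Among these 28 genes the shares were 25% higher and 21.4% lower, near those of all genes compared. Without 18 h replicate 2 only 2 of these were lower, and 4 were higher with common-sum rescaling. Respiratory chain subunits were higher in 5 of 78 cases and lower in 1, and mitochondrial ribosomal proteins were higher in 1 of 77 and lower in 9, counts below the 19.2% and 17.3% of all genes compared. Leaving out 3 h replicate 2 gave 7 mitochondrial ribosomal proteins higher and 5 lower, and 2 were lower without 18 h replicate 1 and 5 without 18 h replicate 2. Respiratory subunits higher were 2 without 3 h replicate 1 or 18 h replicate 2 and 1 without 18 h replicate 1.

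Of 44 proteasome subunits 9 were higher and 1 lower, and 3 were higher without 3 h replicate 1, 16 without 3 h replicate 2, 4 without 18 h replicate 1 and 3 without 18 h replicate 2. In the main fit the shares were 20.5% higher and 2.27% lower, against 19.2% and 17.3% of all genes compared. The higher share was thus near that of all genes. Psme1, an activator subunit, went from 30.8 and 33.4 FPKM to 38.8 and 40.2 FPKM (0.29). Of 40 cytosolic chaperones 3 were higher (7.5%) and 10 lower (25%). Hspb8, a small heat shock protein, went from 72.4 and 76.98 FPKM to 102 and 106 FPKM (0.47), and Hsph1, an HSP70 partner, fell by 0.28. Lower chaperones were 1 without 18 h replicate 1 and 4 without 18 h replicate 2. Of 53 ATF4-type amino acid genes and tRNA synthetases 8 were higher and 9 lower, and 4 and 1 without 18 h replicate 1. Without 3 h replicate 1 or 18 h replicate 2, 3 of these were higher. In the main fit the shares of this list, 15.1% higher and 17.0% lower, did not exceed those of all genes compared. Nupr1, a stress-induced chromatin protein, went from 22.8 and 23.95 FPKM to 30.98 and 30.4 FPKM (0.38). Sox2, the member of the other pituitary lineage list with values, went from 4.57 and 4.10 FPKM to 3.59 and 3.50 FPKM (−0.23), with a call lost under 9 alternatives (adjusted p = 0.0526 to 0.167 in limma's test).

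Among the 9149 genes, 2 were listed at 0 in some but not all of the 4 EGF libraries, both in 18 h replicate 1. Nans, a sialic acid synthase, had 60.9 and 65.9 FPKM after 3 h and 0 and 75.6 FPKM after 18 h. Coro2a, an actin-binding coronin and its neighbour on chromosome 4, had 18.1 and 18.8 FPKM after 3 h and 0 and 19.1 FPKM after 18 h. Neither was called, and both are named after their values were seen. Without that library the log2 difference of the gene Coro2a was 0.04 (adjusted p = 0.611 in limma's test), and without 18 h replicate 2 it was −4.28 (adjusted p = 4.54e-07).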
